A study of Flaveria angustifolia and Flaveria bidentis and Flaveria brownii with 21 samples.

Results

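Leaf transcripts of 3 C3-C4 intermediate species were set against those of 2 C3 species of the same genus, Flaveria, which belongs to the daisy family. The members are the 9 libraries of these 5 species, out of 21 samples in the series. The genus contributes 18 of those samples, taken from 11 species, and the 3 out-group samples were not analysed here. The intermediates were F. angustifolia (juvenile and mature leaves), F. pubescens (juvenile and mature) and F. sonorensis (juvenile), giving 5 libraries. The C3 species were F. cronquistii and F. pringlei, each with juvenile and mature leaves, giving 4 libraries. All plants were grown in a greenhouse, and no treatment is named. A juvenile sample held leaves that had just begun to expand, and a mature sample held the newest leaf that was fully expanded. Leaves of several plants were pooled, with 1 library for a species at a stage, so variation among individual plants was not measured. Photosynthetic type is textbook knowledge and not a label of the samples, and the species also differ in ancestry, which cannot be told apart from type here. By textbook knowledge F. pubescens belongs to a different clade of the genus from the other intermediates.

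In C3 leaves, Rubisco fixes oxygen as well as carbon dioxide, and photorespiration salvages the product through plastids, peroxisomes and mitochondria, where glycine decarboxylase (GDC) with serine hydroxymethyltransferase (SHMT) releases carbon dioxide and ammonium. Intermediate species are known for C2 photosynthesis, in which GDC activity is concentrated in the bundle sheath around the veins, so that the released carbon dioxide can be refixed there. In C4 leaves, phosphoenolpyruvate carboxylase fixes bicarbonate in the mesophyll, and a decarboxylase such as NADP-malic enzyme releases carbon dioxide in the bundle sheath. Whole-leaf RNA carries no information on the cell type, and in such samples fewer cells of a type and less RNA per cell cannot be told apart.

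Values are RPM, Flaveria reads assigned to an Arabidopsis locus per 1e+06 reads of the library. The 9 libraries held 5.40 to 7.54 M recovered reads (M, 1e+06 reads), with 5.40 to 6.35 M in C3 and 5.58 to 7.54 M in C3-C4 libraries. A count of 3 reads, taken as the floor, corresponds to 0.398 to 0.556 RPM, for counting error only. Summed photosystem I transcripts mark green leaf tissue. They were at 26331 to 39751 RPM in juvenile C3 and 40566 to 42600 RPM in juvenile C3-C4 libraries. In mature leaves they were at 42315 to 58591 RPM in C3 and 56634 to 64731 RPM in C3-C4 libraries. This marker was thus higher in every juvenile intermediate than in both juvenile C3 libraries. The 5 listed meristem and flower markers together ran from 1.26 to 13.8 RPM. Mature F. cronquistii stood apart in 2 respects. PR2, a pathogenesis-related glucanase, was at 466 RPM there against at most 15.8 RPM in the other 8 libraries. GLN1;2, a cytosolic glutamine synthetase, was at 9022 RPM there against at most 1233 RPM elsewhere. Without this library 0 loci passed the test described next and 176 were shared.

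No locus passed the test between the types. In limma on log2(RPM + 1), with stage as covariate and species as block, 0 of 14435 tested loci (0%) had an adjusted p under 0.05 in either direction, and the smallest adjusted p was 0.270. At an unadjusted p under 0.05 there were 735 loci, 5.09% of those tested. edgeR's quasi-likelihood test on the recovered reads called 0 loci, with a smallest adjusted p of 0.0910. At an unadjusted p under 0.05 it had 1667 loci. That fit had stage as covariate but no species block, so the stages of a species counted as separate replicates. Its counts are therefore not on an equal footing with those of limma. The 5 juvenile libraries alone gave 0 of 14523 loci in limma (smallest adjusted p 0.658, 1054 loci unadjusted). A stage-by-type term gave 0 of 14414 (smallest adjusted p 0.935, 723 unadjusted). An exact permutation test over species, 3 against 2, has 10 splits, so its smallest two-sided p is 0.2. The values that follow are therefore descriptions of these libraries, and no p-value here covers variation among plants.

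A locus was counted as separated when every intermediate library lay beyond both C3 libraries of its own stage. It was counted as shared by all 3 intermediates when, in addition, each intermediate species differed from the C3 mean of the same stage by at least 1 on the log2(RPM + 1) scale. By the first rule 416 loci (2.88%) were above C3 and 763 (5.29%) below. By the second rule 71 loci (0.492%) were higher and 97 (0.672%) lower, 168 in all. The smallest species difference was 1.00 for the locus just inside this threshold and 0.996 for the one just outside. Shared loci were a small share of those beyond C3 in any intermediate, 3.15% of 2257 higher and 3.18% of 3046 lower loci. Taken by itself, F. angustifolia met the criterion at 803 higher (5.56%) and 817 lower loci (5.66%), F. pubescens at 977 (6.77%) and 917 (6.35%), and F. sonorensis at 1000 (6.93%) and 1965 (13.6%). F. sonorensis had 1 library to place beyond C3 and the others had 2, so these counts are not on an equal footing. The 2 C3 species themselves differed from each other by at least 1 in both stages at 1436 loci.

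**Figure D1:**
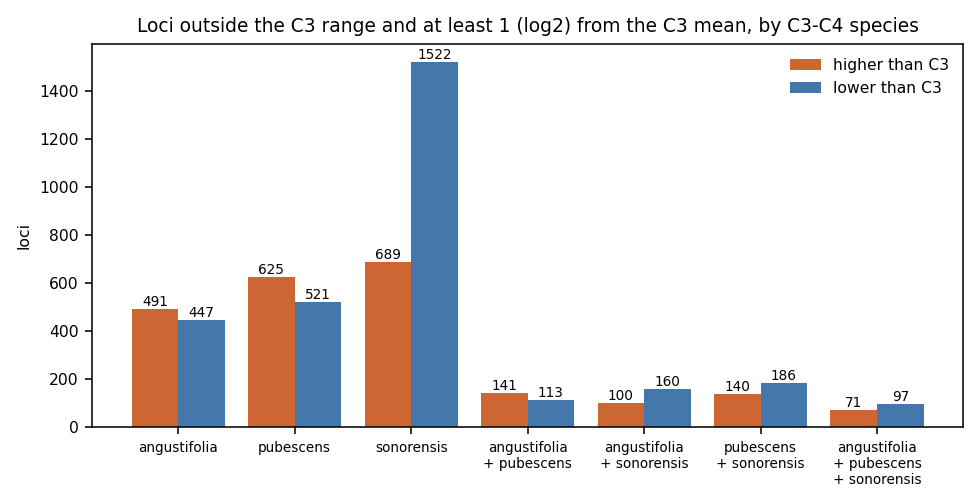
Number of loci (y axis) that lay beyond both C3 libraries of the same stage and at least 1 (log2) from their mean, by the C3-C4 species or combination of species in which they did so (x axis), higher in orange and lower in blue. Most loci belong to 1 species, with 1805 higher and 2490 lower, and 71 and 97 belong to all 3.

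Of the 168 shared loci, 52 (15 higher and 37 lower) also met the rule against each C3 species taken alone, and 1 of these 52 was a listed gene, ASP1. Of all 14435 tested loci, 317 were in the 26 gene lists. Shared loci made up 0.492% (higher) and 0.672% (lower) of all tested loci. Among the 317 listed loci 5 were shared, and all 5 were higher in the intermediates and belong to the C4 cycle list. They were ASP1, ASP2, ASP3 and ASP4, which encode aspartate aminotransferases, and RP1, the regulatory protein that switches pyruvate phosphate dikinase on and off by phosphorylation. Aspartate aminotransferase interconverts aspartate and oxaloacetate and links amino acid and organic acid pools.

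In each list of values that follows, the first number of a species is its juvenile and the second its mature library, and F. sonorensis has a juvenile library only. ASP1 (AT2G30970), the mitochondrial form in Arabidopsis, was at 65.7 and 64.8 RPM in F. cronquistii, 78.7 and 64.2 in F. pringlei, 234 and 221 in F. angustifolia, 177 and 306 in F. pubescens, and 228 in F. sonorensis. All 5 intermediate libraries were above all 4 C3 libraries, and the C3 values lay close together. The difference was 1.75 ± 0.36 (log2, SE), 3.37-fold, higher in 5 of 5 libraries, with a limma adjusted p of 0.623. By species it was 1.73 in F. angustifolia, 1.76 in F. pubescens and 1.65 in F. sonorensis. The F. pubescens value is the mean of 1.29 in juvenile and 2.23 in mature leaves. C4 libraries were at 61.8 to 142 RPM and C4-like libraries at 105 to 295 RPM, so that every intermediate library was above every C4 library.

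ASP2 (AT5G19550), the main cytosolic form in Arabidopsis, was at 21.5 and 49 RPM in F. cronquistii, 56.8 and 93.4 in F. pringlei, 118 and 132 in F. angustifolia, 155 and 213 in F. pubescens, and 105 in F. sonorensis. The 5 intermediate libraries were all above the highest C3 library, mature F. pringlei, and F. cronquistii had the lowest value in each stage. Its difference was 1.55 ± 0.42 with a limma adjusted p of 0.822. ASP3 (AT5G11520), the peroxisomal form, was at 28.7 and 55.9 RPM in F. cronquistii, 58.4 and 95.7 in F. pringlei, 138 and 202 in F. angustifolia, 141 and 169 in F. pubescens, and 89.6 in F. sonorensis. Juvenile F. sonorensis was below mature F. pringlei, so the groups overlap when stages are mixed and do not overlap within a stage. The difference was 1.39 ± 0.38 with a limma adjusted p of 0.808. ASP4 (AT1G62800), another cytosolic form, was at 17.8 and 39.6 RPM in F. cronquistii, 41.1 and 60.3 in F. pringlei, 78.5 and 74 in F. angustifolia, 133 and 218 in F. pubescens, and 71.5 in F. sonorensis, higher in 5 of 5 intermediate libraries than in all C3 libraries. Its difference was 1.52 ± 0.46 (limma adjusted p 0.932), with the largest species value, 2.19, in F. pubescens.

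The plastid form ASP5 (AT4G31990) was separated but not shared, at 105 and 72.6 RPM in F. cronquistii, 93 and 88.1 in F. pringlei, 142 and 134 in F. angustifolia, 109.9 and 264 in F. pubescens, and 117 in F. sonorensis. Its species differences were 0.63 in F. angustifolia, 0.93 in F. pubescens and 0.25 in F. sonorensis, and C4 libraries were at 885 to 2337 RPM. ASP5 was higher in C4 than in C3-C4 libraries by 3.23 ± 0.49 (limma adjusted p 0.00283, all 18 Flaveria libraries), whereas ASP1 to ASP4 did not pass that comparison. RP1 (AT4G21210) was at 2.96 and 15.8 RPM in F. cronquistii, 8.66 and 24 in F. pringlei, 16.1 and 47.6 in F. angustifolia, 20 and 62.2 in F. pubescens, and 13.1 in F. sonorensis. Each intermediate library was above both C3 libraries of its stage, but the juvenile intermediates were below mature F. pringlei. Its difference was 1.43 ± 0.38 with a limma adjusted p of 0.808.

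**Figure D2:**
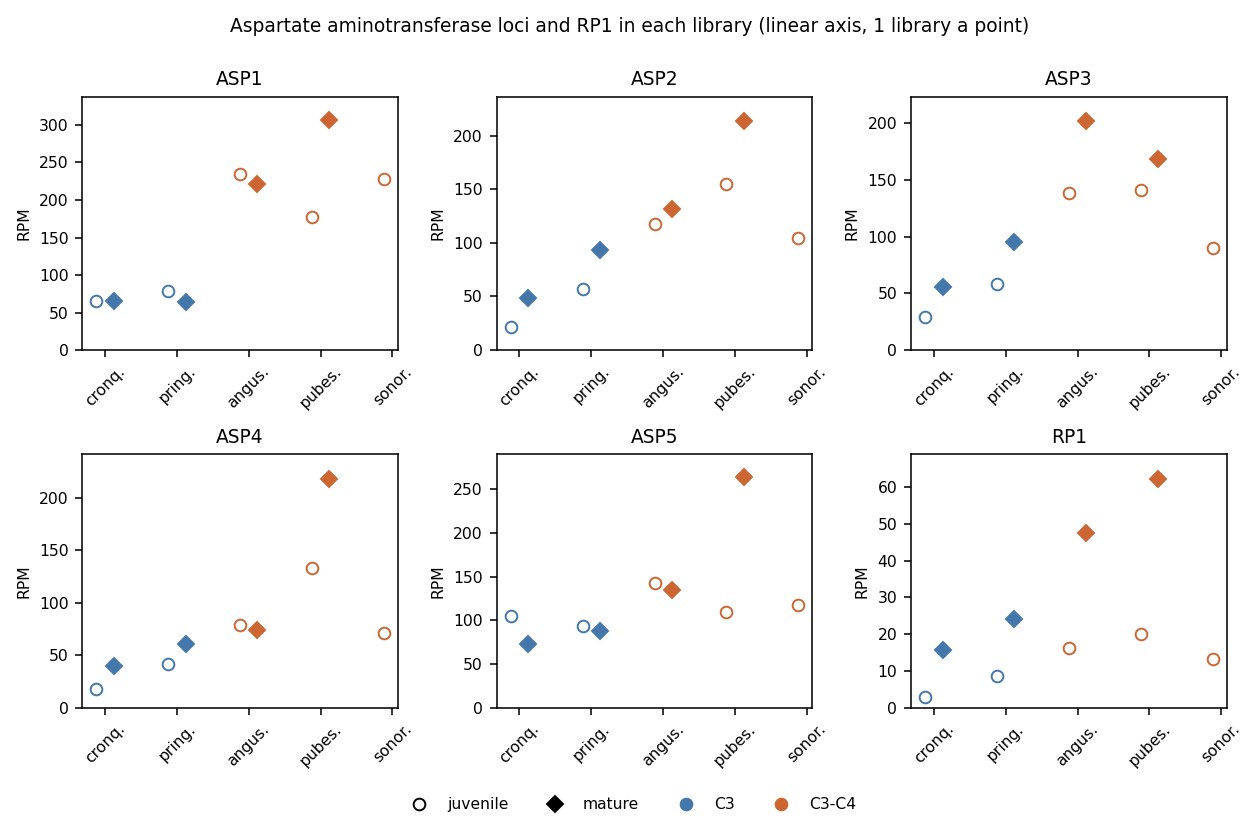
RPM (y axis, linear, from 0) of 5 aspartate aminotransferase loci and RP1 in each library by species (x axis), C3 in blue and C3-C4 in orange, with open circles for juvenile and filled diamonds for mature leaves. Each point is 1 library. ASP1 has the clearest gap, between 78.7 RPM in the highest C3 library and 177 RPM in the lowest intermediate library.

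The choice of C3 species bears on these genes. Without F. cronquistii ASP1 still met the shared rule, with a smallest species difference of 1.52, while ASP2, ASP3, ASP4 and RP1 had all 5 libraries above C3 but smallest differences of 0.764, 0.610, 0.604 and 0.549. Without F. pringlei all 5 genes met the rule. Single libraries bear on it too. Without juvenile F. cronquistii only ASP1 of the 5 met the rule, without mature F. cronquistii ASP4 did not (0.895), and without juvenile F. angustifolia ASP2 (0.951) and ASP4 (0.588) did not. With a pseudocount of 5 in place of 1, ASP4 and RP1 did not meet it. The aspartate aminotransferase loci are not independent of each other, since reads of one Flaveria gene could be split between related Arabidopsis loci. Over the 9 libraries their log2 values had Pearson correlations of 0.600 (ASP3 and ASP5) to 0.968 (ASP2 and ASP4), with library, species and stage in common.

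The GDC and SHMT genes, the core of the C2 cycle, were not shared in either direction. Of 10 tested loci 9 were on the lower side in intermediates (median -0.29, against -0.07 over all loci), and none passed the test. Over all tested loci 56.4% were on the lower side. Of the 10, 2 were separated below C3, against 5.29% of all loci. The species medians were -0.28 in F. angustifolia, -0.89 in F. pubescens and 0.33 in F. sonorensis. In these and later species medians F. sonorensis is juvenile only, while the others average juvenile and mature leaves. Species and stage therefore cannot be told apart there. GLDP1 (AT4G33010), the glycine-binding P protein of GDC, was at 1662 and 1585 RPM in F. cronquistii, 2301 and 2716 in F. pringlei, 1052 and 1574 in F. angustifolia, 626 and 929.9 in F. pubescens, and 1614 in F. sonorensis. All intermediate libraries were below both C3 libraries of their stage, by a narrow margin in mature F. angustifolia and juvenile F. sonorensis. The difference was -0.79 ± 0.41 (limma adjusted p 0.97), with species values of -0.65 in F. angustifolia, -1.40 in F. pubescens and -0.28 in F. sonorensis. GLDP2, the second P-protein locus, had a difference of -1.05 ± 0.41 and tracked GLDP1 over the 9 libraries (r = 0.984), so these loci do not count as separate observations.

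The other subunits did not follow the P protein in every species. GLDT (AT1G11860), the aminomethyltransferase T protein, was at 1545 and 1122 RPM in F. cronquistii, 1807 and 829 in F. pringlei, 1696 and 825 in F. angustifolia, 1087 and 1424 in F. pubescens, and 2838 in F. sonorensis. F. sonorensis was the highest of all 9 libraries, while in F. pubescens the juvenile value was below and the mature value above both C3 libraries of the stage. The difference was 0.18 ± 0.45. For GLDH1, GLDH2 and GLDH3, which encode the lipoate-carrying H protein, differences were -0.24 ± 0.44, -1.03 ± 0.61 and -0.22 ± 0.42. GLDH2 was at 93 and 81.3 RPM in F. cronquistii, 42 and 31.9 in F. pringlei, 39.8 and 22.4 in F. angustifolia, 17.3 and 7.68 in F. pubescens, and 92.6 in F. sonorensis, with the lowest values in F. pubescens and F. sonorensis level with juvenile F. cronquistii. For mLPD1 and mLPD2, the dihydrolipoyl dehydrogenase L protein, differences were -0.63 ± 0.37 and -0.34 ± 0.36. SHM1 and SHM2, the mitochondrial SHMT, had -0.20 ± 0.38 and -0.21 ± 0.43, with F. pubescens at -0.83 and -0.95. Their correlation over the 9 libraries was 0.917, and reads could be split between them. Adjusted p-values of GLDT and the H protein, L protein and SHMT loci, 8 in all, ran from 0.973 to 0.998 in limma. Compared with C4 libraries, mLPD1 and mLPD2 were higher in the intermediates, with C4 minus C3-C4 at -1.82 ± 0.39 and -1.91 ± 0.38 (limma adjusted p 0.0281 and 0.02). Neither passed without F. trinervia, where 0 loci lower in C4 passed, and only 1 lower locus passed without F. bidentis. Reads could also be split between mLPD1 and mLPD2.

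Ammonium released by GDC is refixed by plastid glutamine synthetase (GS2) and ferredoxin-dependent glutamate synthase (GLU1). GS2 (AT5G35630) was at 3893 and 2577 RPM in F. cronquistii, 2463 and 1322 in F. pringlei, 2447 and 1322 in F. angustifolia, 1487 and 1500.2 in F. pubescens, and 2515 in F. sonorensis, and its difference was -0.46 ± 0.38 (limma adjusted p 0.976). Of the 5 intermediate libraries 3 were below both C3 libraries of their stage, juvenile F. pubescens clearly and both F. angustifolia libraries by a margin too small to see at this depth. Without F. cronquistii the difference was -0.05. GLU1 (AT5G04140) was at 1525 and 433 RPM in F. cronquistii, 1344 and 712 in F. pringlei, 329 and 346 in F. angustifolia, 175 and 542 in F. pubescens, and 913 in F. sonorensis, a difference of -1.10 ± 0.73 (limma adjusted p 0.973). The juvenile intermediates were below both juvenile C3 libraries, and mature F. pubescens lay between the mature C3 libraries. In the nitrogen list 13 of 16 loci were on the lower side (median -0.62), against 56.4% of all tested loci, and 0 were separated. The cytosolic glutamine synthetases of this list were high in mature F. cronquistii, with GLN1;1 at 2843 RPM against at most 447 elsewhere and GLN1;4 at 2146 against at most 406. Without that library 12 of 16 loci were on the lower side and the median was -0.40. The plastid and peroxisome photorespiration list had 8 of 17 loci on the higher side (10 under TMM scaling), a median of -0.04 (0.06 under TMM scaling) and 0 separated.

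**Figure D3:**
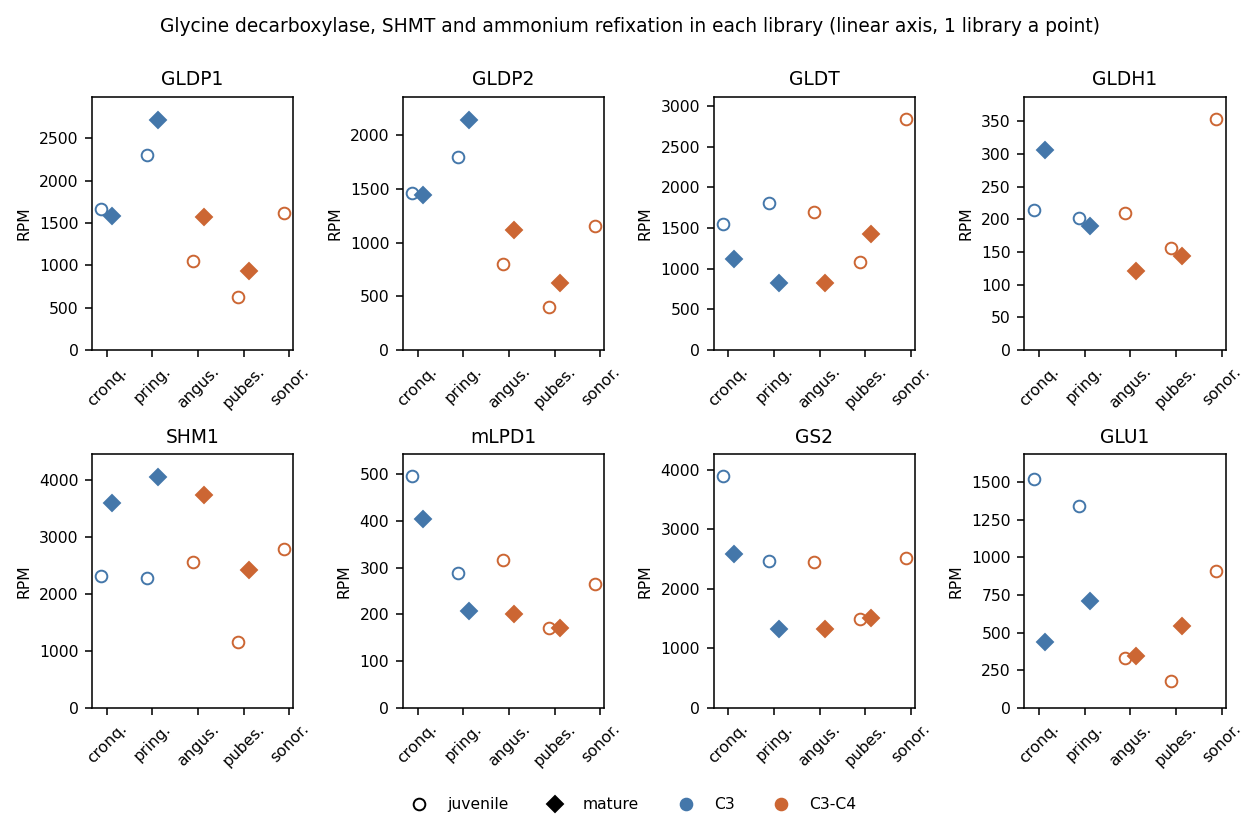
RPM (y axis, linear, from 0) of GDC, SHMT and ammonium refixation genes in each library by species (x axis), C3 in blue and C3-C4 in orange, with open circles for juvenile and filled diamonds for mature leaves. For GLDP1 every intermediate library is below the C3 libraries of its stage, whereas GLDT is highest in F. sonorensis.

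The C4 cycle list had 22 of 25 loci on the higher side (24 under TMM scaling), against 43.6% of all tested loci. Shares over all loci, here and below, are those without TMM scaling. Under TMM scaling the median over all loci was 0.008, so TMM counts and these shares are not on an equal footing. The median difference of the C4 cycle list was 1.08, against -0.07 over all loci. Of the 25, 6 were separated above C3, against 2.88% of all loci, and 5 were shared, against 0.492%. Of the 6 separated loci 5 are aspartate aminotransferase loci. Related loci can share reads, so these counts are not of independent members. The medians by species were 0.61 in F. angustifolia, 1.69 in F. pubescens and 0.50 in F. sonorensis. Phosphoenolpyruvate carboxylase, the entry enzyme of the C4 cycle, was not among them. PPC1 (AT1G53310) was at 393 and 729 RPM in F. cronquistii, 285 and 1102 in F. pringlei, 423 and 736 in F. angustifolia, 198 and 1366 in F. pubescens, and 426 in F. sonorensis, with the groups overlapping in both stages. Differences of PPC1, PPC2 and PPC3 were 0.10 ± 0.50, -0.50 ± 0.59 and -0.04 ± 0.52, and the sign of PPC3 turned under TMM scaling (0.06). C4 libraries held 11133 to 22289 RPM of PPC1, and C4 minus C3-C4 was 4.91 ± 0.67 (limma adjusted p 0.00107).

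PPDK (AT4G15530), pyruvate phosphate dikinase, which regenerates phosphoenolpyruvate, was at 65 and 209 RPM in F. cronquistii, 169.7 and 739 in F. pringlei, 130.0 and 1015 in F. angustifolia, 581 and 3109 in F. pubescens, and 328 in F. sonorensis. Of the intermediate libraries 4 of 5 were above both C3 libraries of their stage, and juvenile F. angustifolia was between them. The difference was 1.79 ± 0.60 (limma adjusted p 0.966), by species 0.84 in F. angustifolia, 2.72 in F. pubescens and 1.63 in F. sonorensis. C4 libraries were at 14837 to 37262 RPM, 5.02 ± 0.82 above the intermediates on the log2 scale (limma adjusted p 0.00563).

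NADP-malic enzyme values differed widely between the intermediates. NADP-ME1 (AT2G19900) was at 150.4 and 105 RPM in F. cronquistii, 123 and 90.9 in F. pringlei, 147 and 161 in F. angustifolia, 552 and 2470.1 in F. pubescens, and 167 in F. sonorensis. F. pubescens stood far above the rest. Of the 5 intermediate libraries 4 were above both C3 libraries of their stage, F. sonorensis among them, and juvenile F. angustifolia lay between them. Species differences were 0.42 in F. angustifolia, 3.33 in F. pubescens and 0.29 in F. sonorensis, and the difference over all was 1.56 ± 0.85 (limma adjusted p 0.972). Without F. pubescens it was 0.41, and without its mature library 0.90. NADP-ME2, NADP-ME3 and NADP-ME4 were at 1.52 ± 0.81, 1.25 ± 0.57 and 1.104 ± 0.74. The 4 NADP-ME loci had correlations of 0.836 to 0.994 over the 9 libraries, with species and stage in common. Reads could be split between these loci, which was not tested. NADP-ME3 was also high in mature F. angustifolia, at 153 RPM against 53.6 and 29.9 RPM in mature C3 leaves. NADP-ME4 was at 387 RPM there against 198 and 104 RPM. The species differences of F. angustifolia were 1.13 and 0.76. Mature F. pubescens had 1969.6 RPM of NADP-ME2, inside the C4 range of 1114 to 3747 RPM, and 2470.1 RPM of NADP-ME1, below the C4 range of 3006 to 6685 RPM. AlaAT1 and AlaAT2, alanine aminotransferases, had the same order of species, with 2.37 and 2.52 in F. pubescens, 0.42 and 0.38 in F. angustifolia and 0.07 and -0.10 in F. sonorensis. AlaAT1 and AlaAT2 had a correlation of 0.994 over the 9 libraries, and reads could be split between them.

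**Figure D4:**
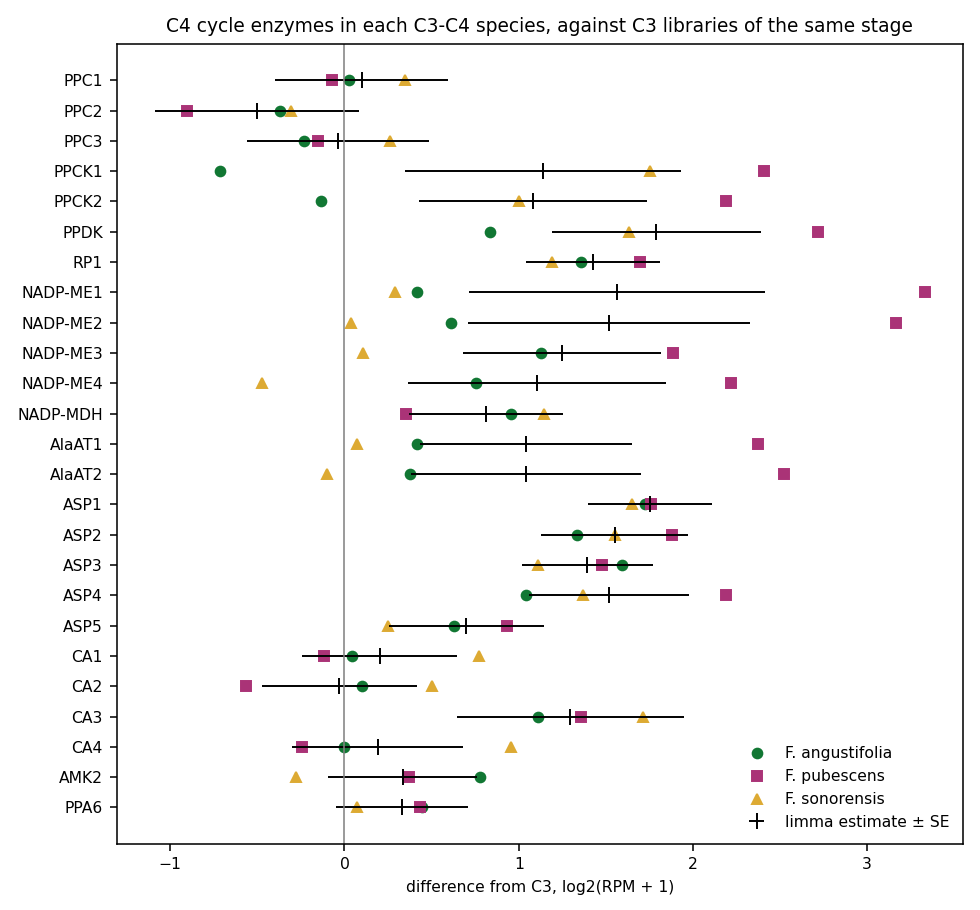
Difference from the C3 libraries of the same stage (x axis, log2(RPM + 1)) for each of 25 C4 cycle loci (y axis) in F. angustifolia (circles), F. pubescens (squares) and F. sonorensis (triangles), with the limma estimate and its SE in black. Averaged over their stages, the species lie close together for ASP1, at 1.73, 1.76 and 1.65, and far apart for NADP-ME1, at 0.42, 3.33 and 0.29. F. sonorensis has a juvenile library only.

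Set against the C4 species, with 107 of 14479 loci passing limma on all 18 Flaveria libraries (75 higher in C4, 0.518%, and 32 lower, 0.221%), 13 of the 25 C4 cycle loci were higher in C4 and 0 lower. That count of loci depends on single species: it was 19 without F. bidentis, 20 without F. trinervia, 27 without F. angustifolia and 50 without F. pubescens. Among transporters, BASS2, the plastid pyruvate carrier, was at 223 and 198 RPM in F. cronquistii, 177 and 205 in F. pringlei, 344 and 226 in F. angustifolia, 608 and 641 in F. pubescens, and 299 in F. sonorensis. It was separated above C3 (0.92 ± 0.41, limma adjusted p 0.966), and C4 libraries were at 3540.3 to 5139.9 RPM. NHD1, the sodium antiporter that works with BASS2, had a difference of 0.05 ± 0.40 from C3 and was 4.75 ± 0.47 higher in C4 than in the intermediates (limma adjusted p 6.85e-05). Of 20 cyclic electron flow loci, 14 were on the higher side of C3 (median 0.26, and 15 loci under TMM scaling), against 43.6% of all tested loci. Of the 20, 1 was separated above (PNSB5) and 1 below (PNSB1), against 2.88% and 5.29% of all loci. In C4 libraries 8 of the 20 were higher than in C3-C4.

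No photosystem gene passed the test. All 16 photosystem I loci had an estimate above 0, where 43.6% of all tested loci did, with a median of 0.40. Without mature F. cronquistii 14 of 16 did, and the median was 0.38. Of the 16, 1 was separated above C3, against 2.88% of all loci, namely PSAE2, a stromal subunit (0.81 ± 0.41). Of 25 photosystem II loci 17 were on the higher side (median 0.17), and 21 under TMM scaling. PSBO1, PSBO2 and PSBR, of the oxygen-evolving side, were the 3 of 25 separated above C3, against 2.88% of all loci. PSBY, a small subunit, was separated below (-0.98 ± 0.39), 1 of 25 against 5.29% of all loci. Calvin-Benson genes had a median of -0.06 (0.03 under TMM scaling) with 0 of 24 separated.

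Of 13 aquaporin loci, which encode water channels, 10 were on the lower side (9 under TMM scaling), with a median of -0.27. Over all tested loci 56.4% were on the lower side, 2.88% were separated above C3 and 5.29% below. The tonoplast aquaporins TIP1;1 and TIP1;2 were separated above C3 and TIP2;1 below, with differences of 1.26 ± 0.47, 1.17 ± 0.54 and -0.91 ± 0.44. TIP1;1 (AT2G36830) was at 337 and 580.4 RPM in F. cronquistii, 1073 and 691 in F. pringlei, 1629 and 900.5 in F. angustifolia, 2026 and 1409 in F. pubescens, and 1824 in F. sonorensis. All intermediate libraries were above their stage's C3 libraries, and C4 libraries were at 547 to 742 RPM. TIP1;1 and TIP1;2 had a correlation of 0.862 over the 9 libraries, and reads could be split between them. In the starch and sucrose list 2 of 22 loci were separated below C3, against 5.29% of all loci. They were BAM3, a plastid beta-amylase, and SWEET12, a sucrose exporter, with differences of -0.93 ± 0.38 and -1.11 ± 0.45.

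All 13 tested cell cycle loci, 12 under TMM scaling, were on the lower side (median -0.44), against 56.4% of all tested loci. Without mature F. cronquistii 8 of 13 were on the lower side and the median was -0.14. Their species medians, with all libraries in, were -0.93 in F. angustifolia, 0.05 in F. pubescens and -0.48 in F. sonorensis. All 14 listed cell cycle loci, tested or not, summed to 304 to 461 RPM in juvenile C3 and 243 to 577 RPM in juvenile C3-C4 libraries. In mature leaves the sums were 26.5 to 83.3 RPM in C3 against 26.7 to 31.3 RPM in C3-C4 libraries. The 7 tested jasmonate and defence loci were all on the lower side (median -0.72), 6 of them under TMM scaling, against 56.4% of all loci. Of the 7, 0 were separated. They summed to 559 to 1749 RPM in mature C3 and 160 to 1532 RPM in mature C3-C4 libraries. Their medians by species were -0.72 in F. angustifolia, -0.58 in F. pubescens and -0.76 in F. sonorensis. Without mature F. cronquistii, where PR2 was high, 3 of 6 tested defence loci were on the lower side and the median was -0.12. Of 18 leaf development and vein regulators 5 were on the higher side (median -0.21), against 43.6% of all tested loci, and 0 were separated. Listed vein and companion cell markers had medians of -0.02 (xylem, 0.07 under TMM scaling) and 0.05 (phloem). Of 7 epidermis and stomata markers 5 were on the lower side (median -0.18), against 56.4% of all tested loci, and 0 were separated. Their sums were lower in intermediates, at 93.9 to 144 RPM against 148 to 155 RPM in juvenile C3 libraries. In mature leaves they were 22.9 to 26.8 RPM against 27.1 to 33.6 RPM in C3 libraries. The part of leaf age, defence state and tissue makeup in the differences above was not tested.

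**Figure D5:**
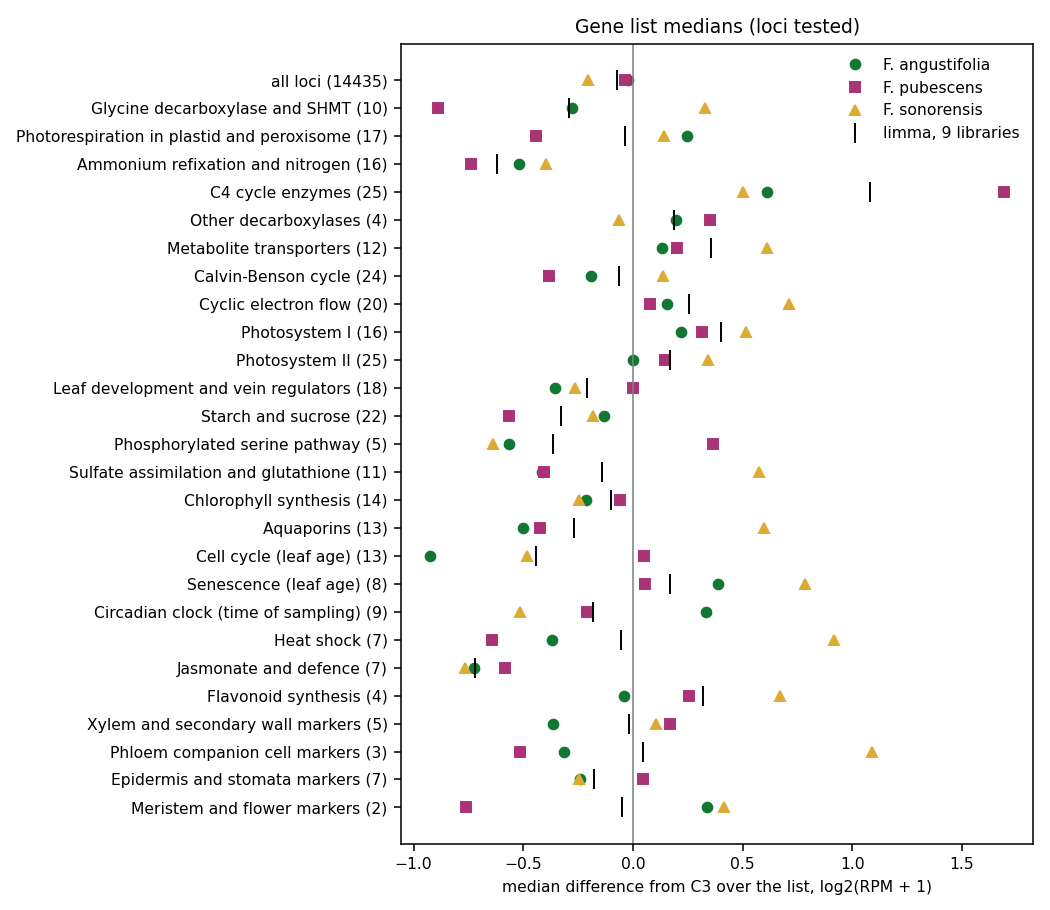
Median difference from C3 (x axis, log2(RPM + 1)) over the tested loci of each gene list (y axis, number of loci in brackets), for each C3-C4 species (symbols) and for the limma estimate over 9 libraries (black bar). The C4 cycle list lies to the right of 0 in all 3 species, and the GDC and SHMT list is at -0.89 in F. pubescens and 0.33 in F. sonorensis. F. sonorensis is juvenile only, while the other species average juvenile and mature leaves.

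Outside the lists, 4 loci are given by identifier, as those with large differences among the shared loci. They were chosen after their values were seen. AT1G22360 was at 14.1 and 17.8 RPM in F. cronquistii, 64.4 and 99.3 in F. pringlei, 327 and 560.3 in F. angustifolia, 152 and 262 in F. pubescens, and 164 in F. sonorensis, above C3 in every intermediate library, with a difference of 2.85 ± 0.58 (limma adjusted p 0.623). AT3G08770 was at 0 and 0.183 RPM in F. cronquistii, 11.6 and 2.67 in F. pringlei, 46.4 and 3.87 in F. angustifolia, 110.2 and 7.96 in F. pubescens, and 45.1 in F. sonorensis, with much higher juvenile than mature values in the intermediates and a difference of 3.01 ± 0.96 (limma adjusted p 0.932). AT3G46430 was at 4.63 and 7.34 RPM in F. cronquistii, 9.92 and 6.94 in F. pringlei, 0 and 0 in F. angustifolia, 0 and 0 in F. pubescens, and 0 in F. sonorensis. It had the smallest limma adjusted p of all loci, 0.27. Its fitted difference of -2.99 ± 0.44 depends on the pseudocount, as all intermediates were at 0. AT3G46430 therefore passed the filter on mean RPM only through the C3 libraries. Identical zeros also leave no spread among the intermediates, so the size of this p-value is not support. AT1G02205 was at 730.4 and 839.8 RPM in F. cronquistii, 4.72 and 0.534 in F. pringlei, 1.79 and 0.161 in F. angustifolia, 4.68 and 0.14 in F. pubescens, and 2.39 in F. sonorensis. Its fitted difference of -4.49 ± 1.64 rests on F. cronquistii, since F. pringlei was as low as the intermediates to within a few RPM, and it did not meet the rule against each C3 species alone.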

How the data were processed

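Leaf RNA was sequenced from pooled greenhouse plants, per the labels' protocols. The authors deposited RPM values, reads per 1e+06 reads, for 20551 Arabidopsis loci. The build was TAIR10, per the submitters' processing notes. The aligner, the counting rule and the handling of reads that match several loci are not given in the sources used here, so loci of a family are uncertain. Whole multiples of 1 read made up 100% of the deposited RPM values (tolerance 0.001 of a read), which gave the depths.

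The test was limma 3.58.1 (R 4.3.3) on log2(RPM + 1), for loci averaging 2 RPM or more in the fitted libraries (mean trend, two-sided, Benjamini-Hochberg adjustment, threshold 0.05). Stage was a covariate and species a random block (statmod 1.5.0), with an estimated correlation of 0.514. The block pairs the stages by the species named in the labels, and stages of a species enter as separate libraries. Such fold changes understate changes of low loci. edgeR 4.0.16 was run on the recovered reads with type and stage in the model and no species block. Shared and separated loci are descriptions with no test. Summaries were made with pandas 2.3.3, scipy 1.17.1 and numpy 2.4.6 under Python 3.11.15, and plots with matplotlib 3.10.9. On simulated data the fit of the 9 libraries recovered 200 of 200 loci changed by 3 (log2) among 14141. There 11.1% of its calls were false, more than the threshold of 0.05 aims at. Species and library spread were set by choice and not estimated from these data, and only loci above a minimum C3 mean were changed. In the data, AT3G08770 at 3.01 ± 0.96 and AT1G02205 at -4.49 ± 1.64 did not pass. The simulation therefore does not show that changes of this size would be found here, and smaller changes were not simulated.

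Members, types and lists were chosen with earlier results of these data known. Symbols are textbook names of 327 listed loci, of which 326 were in the table. The rule named the C2 cycle core, PPC, PPDK and NADP-ME loci, and listed loci that passed or were shared. Outside the lists it asked for loci that passed, of which there were none. Further genes in the text were chosen after their values were seen. Alternatives were TMM scaling, pseudocounts of 0.1 and 5, no filter or 10 RPM, no block, 1 value per species, all 18 libraries, edgeR, other minimum differences, single stages and leaving out each species or library. The mature-only fit, the leave-outs of the shared rule and its form with no minimum were added after seeing the data.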

Additional observations from a re-analysis of the deposited data

Results flagged for a closer look

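Among 48 groups of libraries of 1 type checked for a library that stands apart, 1 did: ASP1 in juvenile F. pringlei, at 78.7 RPM, was far from the other 3 C3 libraries relative to their whole range (gap over range 0.886). Chance gives such a value in about 1 in 20 groups. The value lies below all 5 intermediate libraries, so the separation of ASP1 is as large or larger without it.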

How the results depend on the processing

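Leaving the species block out (no replicate block) gave 1 passing locus against 0, as did no filter on low values. Leaving out a species or library gave 0 to 8 passing loci (8 without F. pringlei, 3 without F. cronquistii, 2 without F. pubescens, 2 without F. sonorensis), and 0 to 1 in juvenile leaves. The 107 loci of C4 against C3-C4 became 19 to 151 when 1 species was left out. The 168 shared loci became 51 with a pseudocount of 5, 92 at a mean of at least 10 RPM, 659 and 11 with minimum differences of 0.5 and 2, 384 in juvenile libraries only and 1179 with no minimum difference. Leaving out a library or species gave 129 to 689 (129 without juvenile F. cronquistii, 689 without F. pringlei, 498 without F. angustifolia, 433 without F. pubescens, 424 without F. sonorensis, 305 without juvenile F. pringlei). There the mean level was recomputed over the remaining libraries, so loci low in the intermediates can drop out. Leaving out an intermediate species also removes a condition of the rule, and all 168 loci were kept in each such case. The larger counts there follow from the rule. Leaving out a C3 library eases the range to be exceeded and moves the C3 mean. Without F. cronquistii 242 loci were shared, and 69 of the 168 were kept. Among uncalled genes, PPC3 (-0.04) changed sign under TMM scaling (0.0554), with 1 value per species (0.0064), in edgeR (0.0319) and in mature libraries only (0.10). Leaving out a library or species took PPC3 from -0.33 to 0.24, GLDT from -0.0653 to 0.38, GLDH3 from -0.39 to 0.0845, mLPD2 from -0.75 to 0.0727, SHM1 from -0.38 to 0.14, SHM2 from -0.54 to 0.19 and PPC1 from -0.16 to 0.32. ASP1 met the shared rule in every setting tried except a minimum difference of 2. The other named genes of the rule kept their sign in all 24 settings, but their size depended on single species. Without F. pubescens NADP-ME1 went to 0.41, NADP-ME2 to 0.44, NADP-ME3 to 0.81, NADP-ME4 to 0.34, GLDP1 to -0.46, GLDH1 to -0.04 and GLDH2 to -0.33. Without F. cronquistii mLPD1 went to -0.19, GS2 to -0.05, GLDH2 to -0.44, PPDK to 1.02, ASP2 to 0.96 and RP1 to 0.94. Without juvenile F. cronquistii GLU1 went to -0.64 and PPC2 to -0.16. The cause of these changes was not tested. With 1 library per species and stage, depth limits only low loci: 4 shared lower loci were under 3 reads in every intermediate library.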
